A study of Drosophila melanogaster with 3 samples.

Results

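The vacuolar proton pump genes described here were the protein-coding genes of Drosophila melanogaster whose symbol starts with Vha. They numbered 33 of the 13945 protein-coding genes annotated on the 6 main chromosome arms. The rule goes by symbol and uses no measured value, though it was chosen with earlier results of these data known. Binding of the transcription factor subunit Nf-YC was measured by chromatin immunoprecipitation and sequencing (ChIP-seq) in whole embryos of both sexes, aged 0 to 18 hours. All embryos came from 1 transgenic line that stably carries Nf-YC joined to green fluorescent protein at its C terminus, and an anti-GFP antibody pulled down the tagged protein with its DNA. The labels give 1 group of 3 biological replicates, with no untreated, mutant or untagged group among them, so every statement below describes a single condition and none compares conditions.

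The vacuolar H+-ATPase is a rotary pump that spends ATP to acidify lysosomes, endosomes and secretory vesicles. Its peripheral V1 sector binds and splits ATP, and its membrane sector V0 carries the protons. Flies keep several gene copies for many subunits, and a number of the extra copies are known chiefly from single adult tissues such as the testis. NF-Y is a trimer of NF-YA, NF-YB and NF-YC that recognises the sequence CCAAT and commonly sits close to transcription start sites (TSSs).

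The authors deposited a peak list for each replicate, a list called on the replicates pooled, and a stricter set selected by the irreproducible discovery rate (IDR), which keeps peaks that rank alike between replicates. Every list other than the strict set held 30000 peaks, and the IDR-thresholded set was the 7476 strongest peaks of the pooled list. A peak is placed here by its summit, and a gene is counted when a summit lies within 500 bp of any of its TSSs. Peak strength is the authors' signal value, a score with no stated unit. Replicate 1 had the highest median signal (61.6), replicate 2 came next (45.3) and replicate 3 was lowest (29.0), and the lists were not scaled to each other. A mean ± SD of signals therefore also holds differences of scale, and the rank within each list (1 is the strongest) is given beside it. The read depth of the libraries is unknown, because the lists hold no read counts.

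Tagged Nf-YC was found at the starts of 13 of the 33 Vha genes in the IDR-thresholded set, or 39.4%, beside 30.6% of all protein-coding genes. The pooled list had a summit at 21 Vha genes, 63.6% of them, where the share of all genes was 46.1%. All 3 replicate lists had one at 17 Vha genes, or 51.5%, beside 36.7% of all genes. At least 1 replicate list had one at 23 Vha genes, or 69.7%, beside 60.1% of all genes. Each share of the Vha genes was thus somewhat above that of all genes. These shares carry no test, since genes are not replicates. Keeping only thresholded summits within 100 bp of a summit among the 7476 strongest of both other replicate lists left 8 Vha genes without replicate 1, 10 without replicate 2 and 9 without replicate 3. Of all genes, this stricter rule kept between 21.3% and 23.6%.

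**Figure D1:**
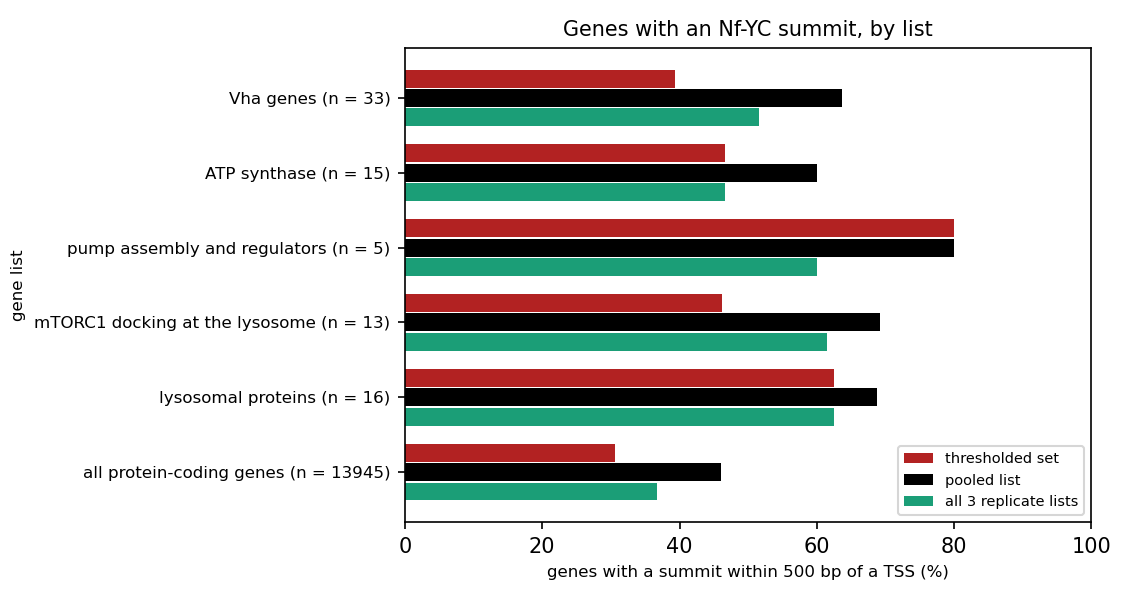
Share of genes (%) with a summit within 500 bp of a TSS in the IDR-thresholded set, in the pooled list and in all 3 replicate lists, for the Vha genes, 4 related gene lists and all 13945 protein-coding genes. The bars of the 33 Vha genes reach 39.4%, 63.6% and 51.5%, beside 30.6%, 46.1% and 36.7% for all genes.

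All 5 subunits encoded by 1 Vha gene had a thresholded summit at that gene: B (Vha55), C (Vha44), E (Vha26), G (Vha13) and H (VhaSFD). Of the 28 genes that belong to the 9 subunits with several copies, 8 had one (28.6%, near the 30.6% of all genes). In 4 of these 9 subunits exactly 1 copy was in the thresholded set, namely Vha36-1 for subunit D, Vha100-2 for a, Vha16-1 for c and VhaPPA1-1 for c''. In 2 subunits, e and the accessory Ac45, there were 2 such copies, and in 3 subunits, A, F and d, there was none. By sector, 6 of 13 V1 genes and 7 of 20 V0 genes were in the set.

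The remaining Vha genes formed 3 tiers. The pooled list reached 8 genes below the IDR threshold, whose strongest summits had signals from 50.2 at Vha16-3 to 220 at Vha100-5. Another 2 genes, Vha100-1 and Vha16-5, had a summit in replicate lists alone. The last 10 had no summit in any list: Vha68-1, Vha68-3, Vha36-2, Vha14-1, Vha14-2, Vha100-3, Vha100-4, Vha16-2, Vha16-4 and VhaPPA1-2. At least 1 replicate list had a summit at 69.7% of the Vha genes, beside 60.1% of all genes. Lacking a summit in every replicate list was therefore no more common among Vha genes than among all genes. In the pooled list, the weakest Vha gene inside the thresholded set, by its strongest summit, was VhaAC45 at signal 302 and rank 6033. The strongest outside it in that list was Vha100-5 at signal 220 and rank 8327. The replicate lists gave another order. Vha16-5 had ranks 6099 and 3914 in replicates 1 and 2, where Vha100-5 had 10229 and 9036. Vha100-1 had rank 3962 in replicate 3, where Vha100-5 had 7544.

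**Figure D2:**
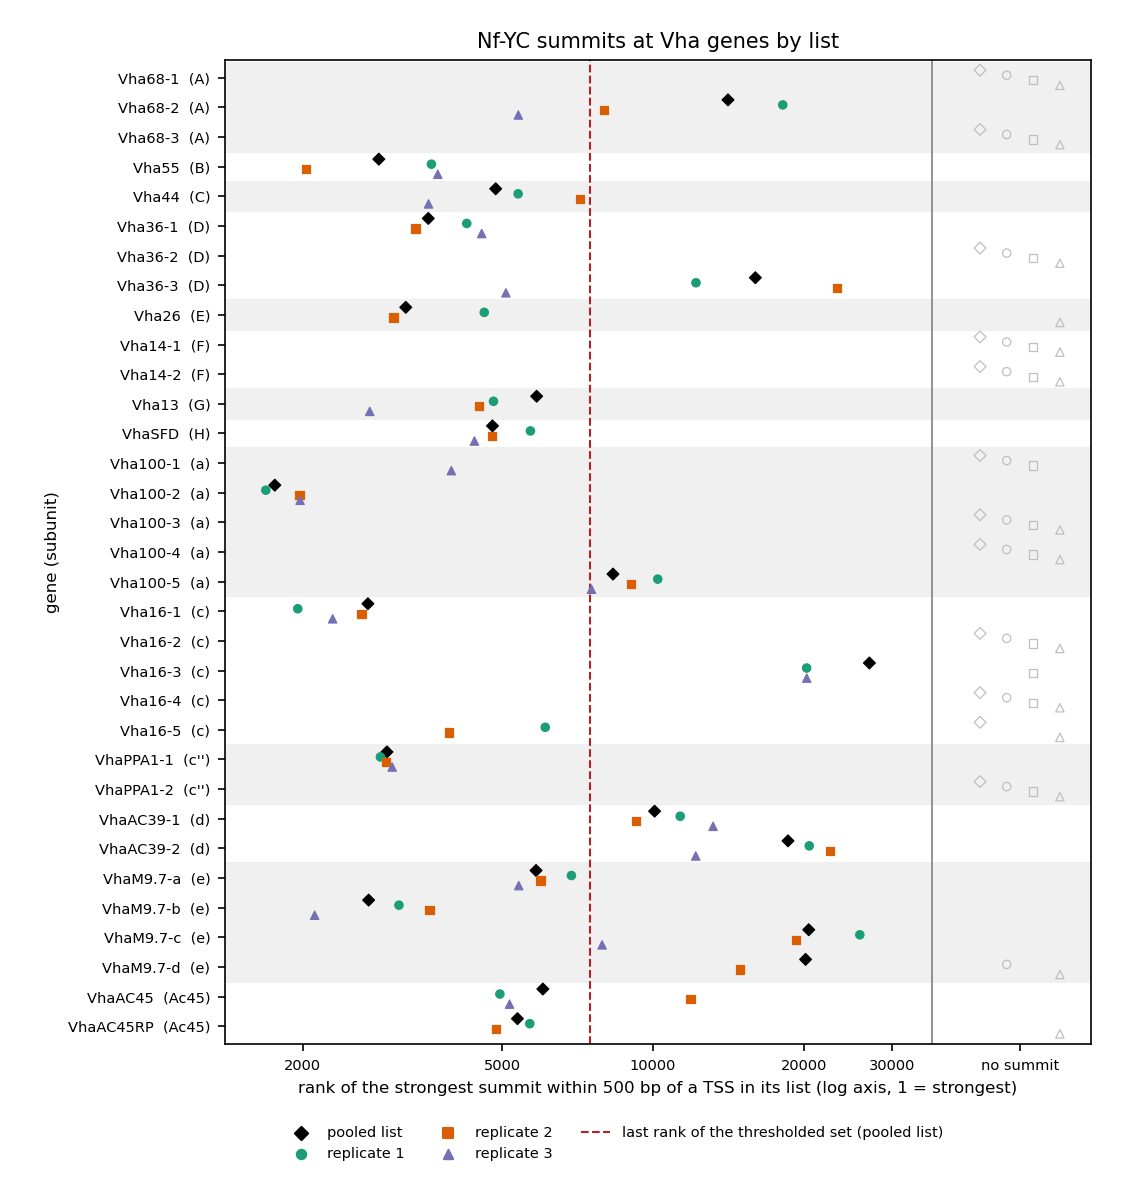
Rank of the strongest summit within 500 bp of a TSS (log axis, 1 is the strongest of 30000) for each of the 33 Vha genes in the pooled list and in each replicate list, with genes grouped by subunit and open symbols where a list had no summit. The dashed line marks rank 7476, the last of the thresholded set, and 13 genes have their pooled summit to its left while 10 genes show open symbols in every list.

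Within the ATP-splitting head, subunits A and B form the ring of alternating catalytic and non-catalytic sites. The B gene Vha55 had its summit at chr3R:12627851 (dm6), 22 bp upstream of its TSS and outside annotated protein-coding transcripts. The pooled signal was 581 (rank 2839). The replicates gave 234, 260 and 106 for the nearest summit within 100 bp, a mean of 200 ± 82.4 (SD, n = 3), at ranks 3615, 2032 and 3722. Vha55 thus stood in the upper part of every list. The oppositely transcribed neighbour Snx3 starts 202 bp away, and its TSS was 180 bp from the summit.

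No gene for the catalytic subunit A was in the thresholded set. Vha68-2 alone of the 3 had summits, spread over its 5 annotated TSSs. Its strongest pooled summit had signal 122 (rank 14127), and the strongest replicate summits had 49.1, 87.2 and 76.2 at ranks 18170, 7993 and 5390. The replicates placed that strongest summit at different starts of the gene: replicate 1 put it 268 bp downstream of the canonical TSS, and replicates 2 and 3 put it 99 and 103 bp upstream of the most upstream TSS. Vha68-1 and Vha68-3 had no summit in any list, with the nearest thresholded summits 15077 and 40398 bp from their TSSs. Vha68-1 and Vha68-2 are the closest pair of copies in the family, with 86.2% identical coding bases. Vha68-3 shares 73.7% with Vha68-1 and 73.8% with Vha68-2. The A genes start within 29485 bp of each other on 2L. Vha68-1 faces mTor, the kinase of the TOR complexes, with 373 bp between the starts, and mTor had no summit either.

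Subunits D and F form the central shaft that turns inside the head. For D, Vha36-1 had a summit 20 bp upstream of its TSS, at chr2R:15541415, with pooled signal 472 (rank 3563). Its replicate signals were 206, 176 and 88.4 (157 ± 61.1, n = 3) at ranks 4253, 3358 and 4555. Vha36-1 is a gene of 1 exon, and the head-to-head gene CG8187 starts 72 bp away, with its TSS 52 bp from the summit. Vha36-3, the copy most like it at 79.3% coding identity, had a pooled signal of 104 (rank 16020) and replicate signals of 77.9, 26.2 and 80.3. The signal at Vha36-1 was 2.64, 6.72 and 1.10 times that at Vha36-3 in replicates 1, 2 and 3, so the direction was shared and replicate 3 showed nearly equal values. Vha36-2 had no summit in any list. Neither gene for F had a summit, and the thresholded summit nearest to a TSS of Vha14-1 lay 905 bp away.

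Subunits E and G build the peripheral stalks that hold the head still. Vha26, the E gene, had its summit at chr3R:5591586, 177 bp upstream of its TSS and 127 bp from the TSS of the head-to-head gene noi, a splicing factor gene. The pooled signal was 522 (rank 3213), and replicates 1 and 2 gave 192 and 190. Replicate 3 had no summit within 500 bp of Vha26. Vha13, the G gene, had its summit at chr3R:19644625, 239 bp upstream, with pooled signal 309 (rank 5863). Replicates 1 and 3 gave 186 and 101, whereas replicate 2 had summits at the gene but none within 100 bp of this one.

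Subunits C and H regulate the joining and the activity of the sectors. Vha44, the C gene, had its summit at chr2R:16336726, 89 bp upstream of one of its 2 TSSs. This summit lay in a 5′ untranslated region of Hmgs, the synthase of the mevalonate pathway, and was nearer to an Hmgs TSS, at 34 bp. Its pooled signal was 366 (rank 4857), and the replicates gave 171, 96.4 and 111 (126 ± 39.3, n = 3). VhaSFD, the H gene, had its summit at chr2L:16727904, 78 bp upstream, with pooled signal 370 (rank 4786). The replicates gave 163, 84.9 and 91.2 (113 ± 43.2, n = 3). Both genes were found in every replicate, with replicate 1 highest in signal as it was in the list medians.

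In the membrane sector, subunit a holds the channels through which protons enter and leave, and its isoforms direct the pump to different membranes. Vha100-2 was the strongest Vha gene of the pooled list. Its main summit lay at chr3R:18397247, 319 bp upstream of a TSS, with signal 867 and rank 1760, and was the single Vha summit at rank 1869 or better, the strongest 25% of the thresholded set. The replicates gave 431, 267 and 185 (294 ± 125, n = 3) at ranks 1689, 1973 and 1977, nearly the same place in each list. This summit lay in a 5′ untranslated region of Vti1b, a vesicle fusion protein gene, and was nearer to a Vti1b TSS (252 bp). A second summit, at chr3R:18399320 and 151 bp upstream of the other TSS of Vha100-2, had signal 456 (rank 3736) and replicate signals of 253, 83.5 and 86.3.

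The other genes for a were lower or had no summit. Vha100-5 had a pooled summit 80 bp upstream with signal 220, and replicate signals of 93.9, 77.3 and 55.1 at ranks 10229, 9036 and 7544. The signal at Vha100-2 was 4.59, 3.45 and 3.36 times that at Vha100-5, so the order was the same in each replicate. Vha100-1 had a summit in replicate 3 alone, of signal 100 and rank 3962, which lay 110 bp from its own TSS and 111 bp from that of dgt6. Vha100-3 and Vha100-4 had none, although Vha100-4 starts only 7123 bp from Vha100-2 and shares 70.4% of coding bases with it.

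Subunit c forms the proton-carrying ring. Vha16-1 had 2 thresholded summits 200 bp apart inside 1 peak interval, at chr2R:6632988 (102 bp downstream of the TSS, in an intron, signal 607) and chr2R:6633188 (98 bp upstream, signal 496). Summits of any list lay at least 199 bp from each other, so these were about as close as the lists allowed. Replicate 1 had a summit near the first alone (384) and replicates 2 and 3 near the second alone (211 and 163), at ranks 1956, 2621 and 2296. The gene was therefore high in all 3 lists, and the placing of the summit differed between them. Vha16-3 was weak, with a pooled signal of 50.2 (rank 27056) and its summit in coding sequence. Vha16-5 was absent from the pooled list yet had signals of 153 and 157 in replicates 1 and 2, 294 and 295 bp upstream of its TSS and only 8 and 7 bp from that of its head-to-head neighbour CG12299. Vha16-2 and Vha16-4 had no summit.

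Subunit d links the rotor ring to the central shaft, and its genes stayed below the IDR threshold. VhaAC39-1 had a pooled signal of 181 (rank 10082) and replicate signals of 84.2, 75.3 and 32.4. VhaAC39-2 had 86.1 (rank 18613) and 41.7, 27.3 and 34.8. VhaAC39-1 was 2.02 and 2.75 times as high in replicates 1 and 2 and 0.933 times as high in replicate 3, so the replicates did not share an order.

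The small membrane subunit e had 2 of its 4 copies in the thresholded set and all 4 in the pooled list. VhaM9.7-b had a summit at chr3L:21539579 with signal 605 (rank 2709) and replicate signals of 262, 169 and 174 (202 ± 52.5, n = 3). VhaM9.7-a had one at chr3L:4262534 with signal 310 (rank 5847) and replicate signals of 138, 112 and 76.1 (109 ± 30.9, n = 3). The first was 1.90, 1.502 and 2.28 times the second. Both summits were nearer to the start of an oppositely transcribed gene. For VhaM9.7-b this was COX8, a cytochrome oxidase subunit gene, at 132 bp against 283 bp. For VhaM9.7-a it was CG11586, at 64 bp against 171 bp. VhaM9.7-c and VhaM9.7-d were weak, with pooled signals of 75.9 and 77.4.

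For the accessory subunit Ac45, which helps to assemble and steer the pump, both copies were in the thresholded set. VhaAC45 had its summit at chr2R:9207515, 46 bp upstream, with signal 302 and replicate signals of 182, 58.4 and 79.1 (107 ± 66.3, n = 3). VhaAC45RP had its summit at chr3R:30166430, 11 bp upstream, with signal 335 (rank 5368) and signals of 163 and 133 in replicates 1 and 2. Replicate 3 had no summit within 500 bp of VhaAC45RP. The ratio of VhaAC45RP to VhaAC45 was 0.896 in replicate 1 and 2.28 in replicate 2, so the replicates gave no common order.

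Across the family, 19 pairs set the strongest copy of a subunit in the pooled list (for F, with no summit, the first by name) against each other copy. In 16 of them it was also the stronger in 3 of 3 replicates, counting a copy with no summit as the weaker. The order was mixed in the 2 pairs of VhaAC39 and Ac45 genes, and neither Vha14 gene had a summit. The pooled list was called on the same reads as the replicates, so the count of 16 is no independent agreement and carries no test. Within 500 bp of the canonical start, 0% of 31-base words recurred on the 6 main chromosome arms for every Vha gene except Vha36-1, where 2.06% did. Other starts were not searched, so the thresholded summits of Vha16-1 and Vha44 and the second one of Vha100-2 fell outside this search. The read length is unknown, and the part of reads shared between copies in these values was not tested.

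Neighbouring copies also differed at subunit c'', another part of the rotor ring. VhaPPA1-1 and VhaPPA1-2 lie on the minus strand of 3R with starts 3784 bp apart, and their coding sequences are 69.4% identical. VhaPPA1-1 had a thresholded summit at chr3R:14904135, 74 bp upstream of its TSS, of signal 564 (rank 2947). Its replicate signals were 280, 195 and 128 (201 ± 76.3, n = 3) at ranks 2860, 2935 and 3019, the closest agreement in rank of any Vha summit found in all 3 lists. VhaPPA1-2 had no summit in any list, and the nearest thresholded summit lay 1585 bp away.

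The 150 bases before each start are shown because they hold the VhaPPA1-1 summit and the matching stretch of the copy without one. They are read 5′ to 3′ along the gene from the RefSeq copy of the Release 6 genome (dm6), minus strand, at chr3R:14904062-14904211 and chr3R:14900278-14900427. Capitals mark CCAAT on either strand, which reads ATTGG when it lies on the other strand. The promoter of VhaPPA1-1 holds no CCAAT in this stretch, whereas that of VhaPPA1-2 holds 1, starting 139 bases before the TSS. Further upstream VhaPPA1-1 has 2 CCAAT boxes, centred 268 and 311 bp before its TSS. Weaker second summits of replicates 2 (signal 117) and 3 (signal 74.6) lay 58 and 12 bp from the nearer of these, while the thresholded summit was 194 bp from it.
VhaPPA1-1: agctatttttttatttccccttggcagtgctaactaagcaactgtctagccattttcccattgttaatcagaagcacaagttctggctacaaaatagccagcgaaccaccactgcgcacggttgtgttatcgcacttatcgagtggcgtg
VhaPPA1-2: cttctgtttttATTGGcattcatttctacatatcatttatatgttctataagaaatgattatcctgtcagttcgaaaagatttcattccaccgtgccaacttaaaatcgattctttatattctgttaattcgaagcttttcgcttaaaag

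Other members joined a CCAAT box to a nearby summit. VhaAC45RP (chr3R:30166420-30166569, minus strand) has CCAAT starting 34 bases before the TSS and 21 bp from the summit. VhaSFD (chr2L:16727827-16727976, minus strand) has CCAAT 132 bases before the TSS and 52 bp from the summit, and a DNA replication-related element (DRE, TATCGATA), a common fly core promoter sequence, 23 bases before the TSS. Vha100-5 (chr2L:11738798-11738947, plus strand), below the IDR threshold, has 3 CCAAT boxes, at 77, 64 and 32 bases before the TSS, and a GAGA repeat (AGAGAG, here read as CTCTCT). Capitals mark these matches.
VhaAC45RP: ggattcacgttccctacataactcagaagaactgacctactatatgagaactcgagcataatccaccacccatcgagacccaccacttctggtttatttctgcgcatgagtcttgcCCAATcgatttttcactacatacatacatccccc
VhaSFD: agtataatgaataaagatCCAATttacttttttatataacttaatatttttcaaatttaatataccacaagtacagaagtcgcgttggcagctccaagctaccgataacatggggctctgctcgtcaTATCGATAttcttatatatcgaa
Vha100-5: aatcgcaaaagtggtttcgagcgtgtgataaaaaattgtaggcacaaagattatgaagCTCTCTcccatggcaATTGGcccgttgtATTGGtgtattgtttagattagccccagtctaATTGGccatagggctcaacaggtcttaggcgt

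CCAAT lay within 100 bp of 6 of the 15 distinct thresholded Vha summits (40%, 95% Wilson interval 19.8 to 64.3%), beside 37.1% of all 3985 thresholded promoter summits. Under the stricter rule that leaves out a replicate, the share was 25% without replicate 1, 36.4% without replicate 2 and 22.2% without replicate 3, over 8 to 11 summits. The 6 were at Vha13, Vha16-1, Vha36-1, VhaAC45, VhaAC45RP and VhaSFD. In the 300 bases from 250 before to 50 after the canonical start, 16 of 33 Vha promoters held CCAAT, beside 46.6% of all promoters. These included 6 of the 13 genes in the thresholded set and 5 of the 10 with no summit in any list. The interval covers counting error alone, taking the 15 summits as separate draws, and a match of letters is no measure of binding.

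The E-box of the MITF/TFE family was present near 3 Vha summits. Fly Mitf, like its mammalian relatives, is known to act on pump genes through this sequence, CACGTG, or its extended form TCACGTGA, which contains it. CACGTG lay within 100 bp of 3 of 15 Vha summits (20%, 95% Wilson interval 7.05 to 45.2%), beside 2.41% of all promoter summits. The extended form lay within 100 bp of 2 of 15 (13.3%, interval 3.74 to 37.9%), beside 0.151%. It occurred at only 6 of the 3985 promoter summits, and 2 of those 6 were at Vha16-1 and Vha44, where the centre of the word was 6 and 44 bp from the pooled summit. Replicate summits closest to it lay 43, 5 and 37 bp away at Vha44 and 19, 150 and 204 bp away at Vha16-1 (replicates 1, 2 and 3). At Vha55 the distances from CACGTG were 54, 131 and 104 bp, so of these 3 genes Vha44 alone had a summit within 100 bp in every replicate list. These motifs were listed with earlier results of these data known. The intervals take the 15 summits as separate draws, although Vha16-1 and Vha100-2 gave 2 each. Neither the shares nor the intervals are a test.

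Counted over the whole 500 bp on either side of every TSS, the extended form occurred at 3 of 33 Vha genes (Vha16-1, Vha44 and Vha68-2), beside 0.767% of all genes. In this wider window CACGTG occurred at 11 of 33 Vha genes, beside 15.4% of all genes. CCAAT occurred at 30 of 33, beside 90.8%. DRE occurred at 2 of 33, Vha55 and VhaSFD, beside 12.98%. In the narrower promoter window CACGTG was in 2 of 33 Vha promoters, beside 4.29% of all, and in 1 of the 13 Vha genes in the thresholded set, beside 5.18% of all genes in it. In that window the extended form was in 0 of 33 Vha promoters, beside 0.172% of all, since the matches of Vha16-1, Vha44 and Vha68-2 belong to other starts than the canonical one.

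The other motifs searched were found as follows. A GAGA repeat (AGAGAG) was within 100 bp of 1 of 15 Vha summits, beside 15.2% of all promoter summits. DRE was within 100 bp of 1 of 15, beside 7.43%. The sequence CAGCTG, another E-box, was within 100 bp of 4 of 15 (26.7%), beside 12.7%.

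The E-box windows of Vha55 and Vha68-2 are shown as 30 bases of dm6 each, read along the gene, with CACGTG in capitals. That of Vha55 (chr3R:12627756-12627785, minus strand) was 80 bp from its thresholded summit. That of Vha68-2 (chr2L:12975292-12975321, plus strand) carries the extended form, although this gene was below the IDR threshold. Its E-box was 57, 89 and 63 bp from the nearest summits of replicates 1, 2 and 3. Those summits had low signals of 26.3, 26.7 and 32.1, at ranks 27743, 22927 and 13368. In each replicate list the strongest summit of Vha68-2 lay elsewhere.
Vha55: gtcatgtgacggCACGTGacgtcacagcag
Vha68-2: tcaaagctctgtCACGTGaaacgaaagctc

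**Figure D3:**
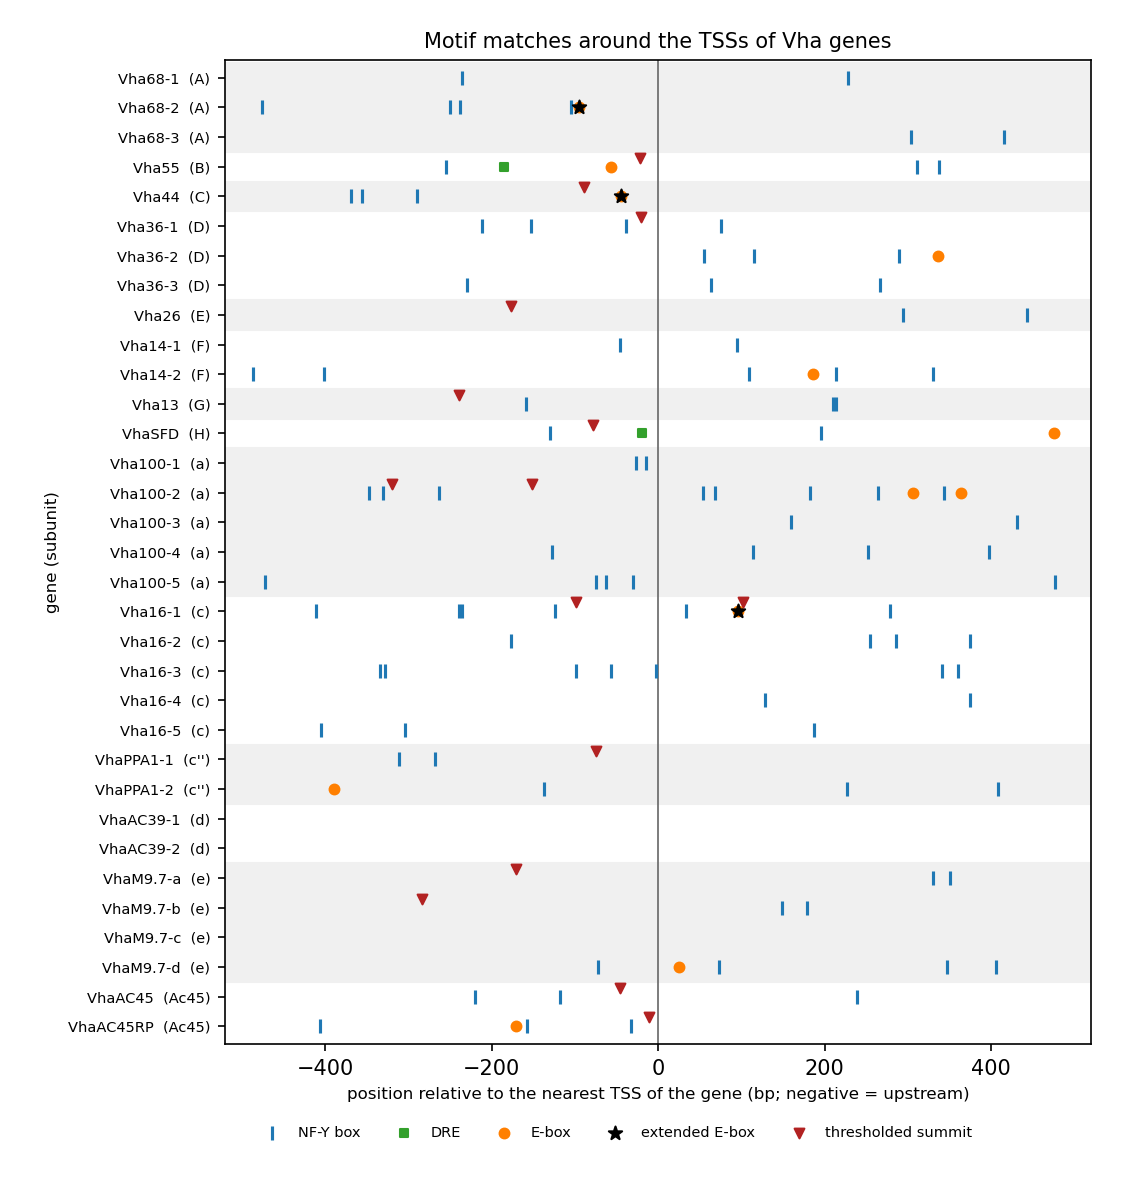
Positions of NF-Y boxes (CCAAT), DRE, E-box and extended E-box matches and of thresholded summits, in bp from the nearest TSS of each of the 33 Vha genes, with negative values upstream. Of the 15 thresholded summits 14 lie upstream of the nearest TSS of the Vha gene itself, and the extended E-box appears at Vha68-2, Vha44 and Vha16-1.

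In median signal and median rank the Vha summits were close to the middle of all promoter summits. Only 1 of the 15 was in the strongest 25% of the thresholded set. Of the 15, 14 lay upstream of the nearest TSS of the Vha gene itself and 8 within 100 bp of it. The median distance from the Vha gene's own TSS was 98 bp. For all promoter summits the median was 113 bp, taken from the nearest TSS of any gene. These measures differ, since 5 of the 15 Vha summits were nearer to another gene. The median signal was 472 (range 302 to 867), beside 467, and the median rank was 3563, beside 3622. The upper quartile of signal was 572, beside 825, and the highest signal of all promoter summits was 81383. By annotation, 11 summits were intergenic, 2 in introns and 2 in 5′ untranslated regions of neighbouring genes, and none lay in coding sequence. These counts of side, closeness and annotation have no share of all promoter summits beside them. They are therefore not read as particular to the Vha genes. Of the 15, 10 had a summit within 100 bp in all 3 replicate lists, 4 in 2 lists and 1 in 1 list. The summits of VhaM9.7-b lay close together in all lists, while those of Vha16-1 and Vha68-2 were spread.

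**Figure D4:**
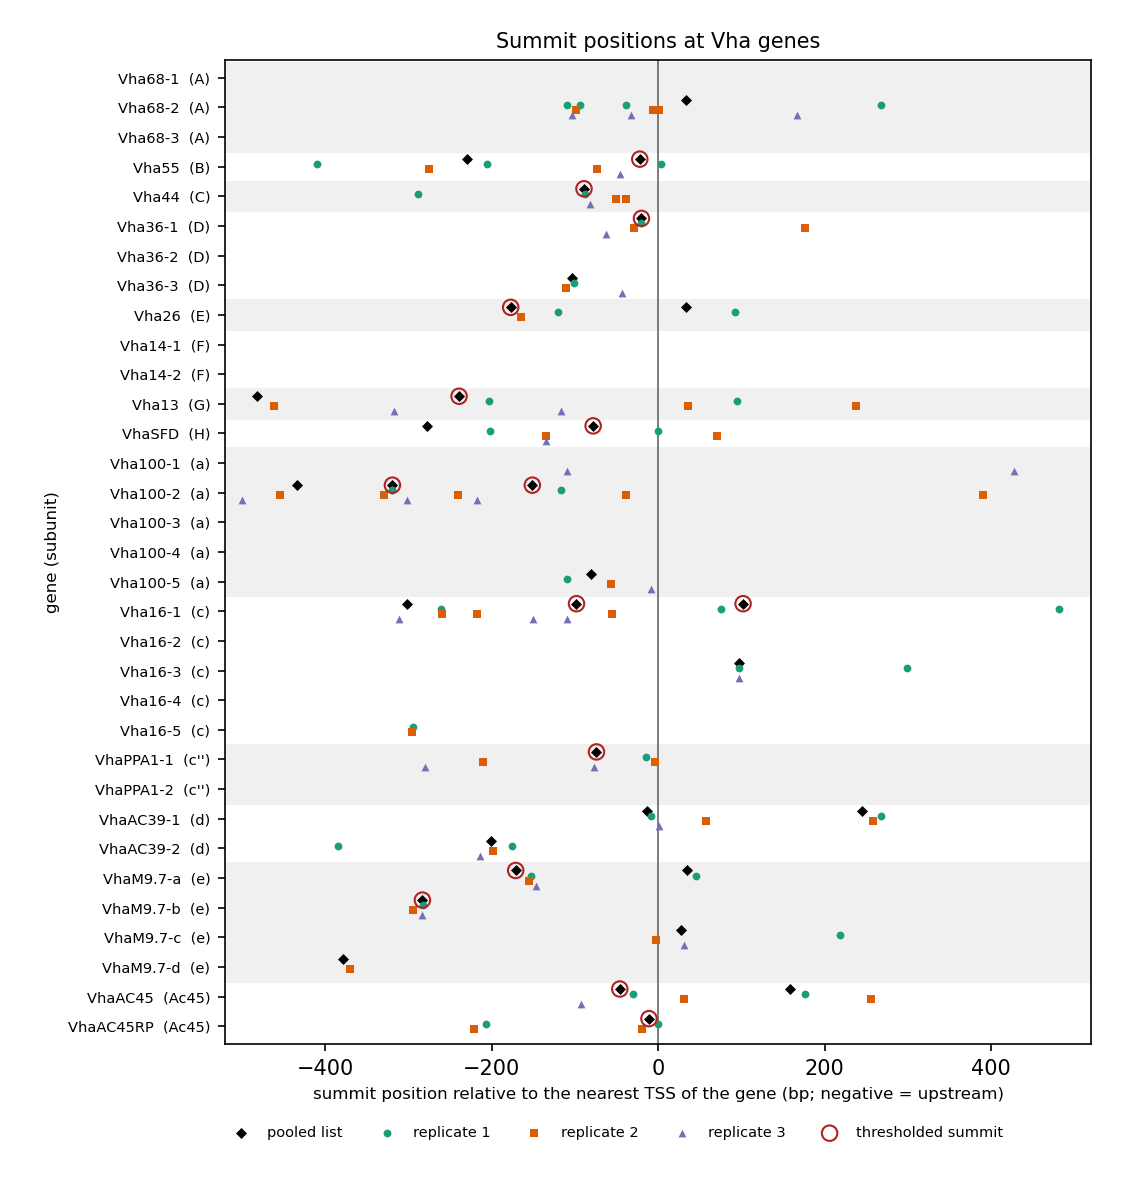
Position of every summit within 500 bp of a Vha TSS in the pooled list and the 3 replicate lists, in bp from the nearest TSS of the gene (negative upstream), with thresholded summits ringed. The rows of the 10 genes with no summit are empty, and the ringed summits run from 319 bp upstream at Vha100-2 to 102 bp downstream at Vha16-1.

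Gene layout varied between Vha genes with and without a thresholded summit. Of the 12 Vha genes that start head to head with another gene within 500 bp, 7 were in the thresholded set, against 6 of the other 21. The same held across the genome, where 51.7% of head-to-head genes and 23.4% of the rest were in the set. For 5 of the 15 Vha summits the other gene was the nearer, and the assay does not say which of the genes a shared summit belongs to. Of the 9 Vha genes with 1 exon, Vha36-1 alone was in the set, against 12 of the 24 with introns. Across all genes the shares were 15.4% and 33.5%.

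Genes that work beside the pump were read from 4 lists of related genes, whose counts stand beside the 30.6% of all genes in the thresholded set. Of 5 genes for pump assembly and regulation, 4 were in the thresholded set (80%). The strongest was mtd, a TLDc-domain protein gene, with signal 1401 (rank 1030). ATP6AP2, the prorenin receptor homologue and an accessory pump subunit, had signal 708 and replicate signals of 278, 269 and 168 (238 ± 61.1, n = 3). Rbcn-3A, a subunit of the complex that assembles V1 with V0, had signal 458, whereas its partner Rbcn-3B had no summit in any list. Mitf itself had signal 282 (rank 6526), with 200 and 83.9 in replicates 1 and 2 and no summit in replicate 3.

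Of 13 genes for mTORC1 and its docking and control at the lysosome (its kinase and raptor, Rheb, the Rag and Ragulator genes and the inhibitory GATOR1 genes), 6 were in the thresholded set (46.2%). The strongest were the Ragulator subunit gene Lamtor3 (666), the GTPase gene Rheb (566) and the Rag GTPase genes RagA-B (411) and RagC-D (390). The RagA-B summit was nearer to CG11970, at 21 bp against 382 bp. Of 16 genes for lysosomal proteins, 10 were in the set (62.5%). They were led by the lysosomal efflux gene spin (1237), the cathepsin gene CtsL1 (752), Cln7 (704) and the hexosaminidase gene Hexo2 (488), and the CtsL1 summit was nearer to Rpn13, at 46 bp against 225 bp.

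The list for the mitochondrial ATP synthase, the rotary relative of the pump, held the 15 genes whose symbol starts with ATPsyn. Any subunit gene with another symbol was not counted. Of the 15, 7 were in the set (46.7%), led by ATPsynO (509), ATPsynF (473), ATPsyngamma (448) and ATPsynE (431). The median of the strongest thresholded signal per gene was 583 for assembly and regulation, 401 for the mTORC1 list, 459 for lysosomal proteins and 431 for ATP synthase. It was 472 for the Vha genes and 533 for all genes in the set. The lists are small and carry no test.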

How the data were processed

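Nf-YC-GFP ChIP-seq peaks of 3 embryo replicates were read as deposited. The authors called peaks per replicate and on the replicates pooled, against 1 control alignment, and derived the IDR-thresholded set from these lists, per the deposited notes. The genome is dm6, per the labels. How reads were aligned, which caller was used and the IDR cut are not given in these sources. The deposited signal value is a score of unstated unit, and the deposited summit offset places each summit. Reads, the control and signal tracks were not analysed here.

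TSSs came from Ensembl release 115 (BDGP6.54), which annotates the same Release 6 assembly. Coordinates are 1-based. Replicate values are those of the nearest summit within 100 bp of the thresholded summit, or, for genes outside the set and for paralogue ratios, the strongest within 500 bp. Promoters were cut from the RefSeq genome, 250 bases before to 50 after the canonical start. A comparison of protein sequences was planned and not run. Coding bases were globally aligned instead, a choice made after the files were seen. Motifs were searched on both strands. Python 3.11.15, pandas 2.3.3, scipy 1.17.1 and biopython 1.88 were used, and summit assignment was tested on simulated data. No p-values were computed, since 1 group allows no comparison. Members, motifs and gene lists were chosen with earlier results of these data known. Every Vha gene is named, with up to 4 genes per related list by strongest thresholded signal, genes nearer to a Vha summit, and others where a sentence turns on them.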

Additional observations from a re-analysis of the deposited data

How the results depend on the processing

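Of the 33 Vha genes, 13 were in the thresholded set. That count was 12 within 250 bp (beside 26.2% of all genes), 14 within 1000 bp (33.7%), 11 with canonical starts (27.8%), 9 with the nearest gene only (23.9%) and 13 with peak intervals (32.1%). It was 21 with the whole pooled list (46.1%), 7 with the upper 50% of thresholded peaks (17.7%) and 8 to 10 with each replicate left out (21.3% to 23.6%). The count of 4 subunits with exactly 1 copy in the set was 2 with the whole pooled list, 3 to 5 under the other settings and 4 without any 1 replicate, though not always for the same subunits: without replicate 2 or 3, c left this group with Vha16-1 and Ac45 entered it as 1 of its copies was lost. The 17 Vha genes in all 3 replicate lists became 10 when only the 7476 strongest peaks of each list were kept (21.7% of all genes). They became 17 to 20 with each replicate left out (38.3% to 44.3% of all genes). The share of Vha summits with CCAAT within 100 bp (40%) ran from 20% within 50 bp to 60.0% within 200 bp, and from 22.2% to 36.4% with each replicate left out. Vha100-2, Vha36-1, Vha55 and VhaPPA1-1 stayed in the set under all 10 alternatives, and 11 genes stayed outside it. Vha26, Vha44, VhaM9.7-a and VhaM9.7-b left it when a summit counted for the nearest gene only. Vha16-1 left it with canonical starts and without replicate 2 or 3, and Vha44 with canonical starts. Vha13, VhaAC45 and VhaSFD left it without replicate 1 or 3, and Vha26 and VhaAC45RP left it without replicate 1 or 2. Leaving out a replicate also shrinks the peak set. No paired analysis was possible because the replicates form 1 group. Depth is unknown, so a missing summit in a list cut at 30000 peaks shows no absence of binding.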

Other observations

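Copies of ATP synthase genes were read by a split of symbols made after the values were seen, with no test and too few genes to set against the 30.6% of all genes in the thresholded set. None of the 4 ATP synthase genes whose symbol ends in L was in the thresholded set. ATPsynCF6L, ATPsynGL and ATPsynbetaL had no summit in any list, and ATPsynepsilonL had 1 in replicate 1 alone, of signal 63.5 (rank 14589). Of the 11 other genes with the ATPsyn prefix 7 were in the set, and all 11 had a summit in at least 1 list. ATPsynbeta, which encodes the catalytic subunit, had signal 398 (rank 4394) with replicate signals of 225 and 113 in replicates 1 and 2, and its copy ATPsynbetaL had none.

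The GATOR1 subunit genes Iml1 and Nprl3 had a summit in replicate 3 alone, with signals of 117 and 182 at ranks 3339 and 2013, and their partner Nprl2 had a pooled signal of 75.5 (rank 20558). Replicate 3 was thus the one list with a summit at Iml1 and Nprl3, as it was for Vha100-1, whereas the one replicate summit of Nprl2 was in replicate 2 (47.5, rank 14397).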
